A study of Mus musculus with 6 samples.

Results

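The genes described here are 37 mouse genes that govern the passage of a cell from G1 into S phase, together with the Myc network that feeds into it. They were chosen by name, as cyclins, cyclin-dependent kinases, kinase inhibitors, E2F factors, pocket proteins and Myc partners, and each name matched 1 of the 53700 genes listed in the expression table. They fall into 16 drivers, 18 inhibitors and 3 partners that serve both sides. Expression was measured by RNA-seq in SL4, a luciferase-expressing mouse colorectal cancer (CRC) cell line. One group of 3 libraries came from SL4 cells that overexpress the semaphorin SEMA6A from a lentivirus (pLV-SEMA6A), and the other 3 from SL4 cells without this overexpression (pLV-Control). The labels do not say whether the control cells carry an empty lentiviral vector, so an effect of the vector cannot be told apart from that of SEMA6A. The authors deposited TPM, a transcript level scaled by transcript length and by the library total. No animal or drug enters this comparison. Only 1 pLV-SEMA6A population is described, so SEMA6A and a difference between cell populations cannot be told apart. The labels do not say that the replicates are separate cultures, so p-values measure the spread between these libraries, which may be technical.

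Growth signals raise the D-type cyclins, which pair with CDK4 and CDK6 and phosphorylate the pocket proteins RB, p107 and p130. Phosphorylated pocket proteins release E2F factors, which switch on cyclin E and the genes of DNA replication, and cyclin E with CDK2 completes the step. INK4 proteins block CDK4 and CDK6, Cip/Kip proteins bind the CDK complexes more broadly, and Myc with its partner Max promotes growth while Mxd proteins compete for Max. The question put to the data was whether drivers and inhibitors differed between pLV-SEMA6A and pLV-Control cells.

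As labelled, Sema6a reached 98.7, 118 and 112 TPM with pLV-SEMA6A and was listed at 0 in all 3 controls. Between 18798 and 19463 genes were above 0 in a library. TPM holds no read depth, so the number of reads behind a value is unknown and no counting interval can be given. Of 10 epithelial markers, 0 reached a mean of 1 TPM, 3 (Epcam, Cdx1 and Cdx2) were at 0 in every library, and their summed level was 0.13 to 0.71 TPM in pLV-Control and 0.25 to 0.58 TPM in pLV-SEMA6A, so the colorectal label was not borne out by these markers. Of 10 leukocyte markers, 1 reached 1 TPM (Cd68) and 6 were at 0 throughout, with sums of 0.82 to 2.06 and 0.97 to 1.27 TPM. Of 10 fibroblast and endothelial markers, 4 reached 1 TPM and 1 was at 0 throughout, with sums of 15.9 to 16.6 TPM in pLV-Control and 13.5 to 14.9 TPM in pLV-SEMA6A. These sums hold opposite changes, since Col1a1 rose 2.84-fold from a mean of 1.27 TPM (adjusted p = 0.000681 from limma) and Pdgfrb fell from 10.5 to 6.66 TPM (adjusted p = 0.000442), as did Pdgfra from 1.76 to 0.78 TPM (adjusted p = 0.0219, called in 3 of the 6 fits without 1 library). Whether other cells had a part in the results below was not tested, and in bulk RNA fewer cells of a type and less RNA per cell cannot be told apart.

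Promoter sequences are shown for 4 genes whose level rose, because they carry the letters that E2F or Myc proteins are known to bind. RefSeq held a promoter window, from 250 bases before to 50 after the start, for 28 of the 37 genes. One of the E2F letters TTTCCCGC, TTTGGCGC or TTTCGCGC, read on either strand, stood in the window of 9 of these 28 genes (32.1%) and of 2.12% of the 27025 RefSeq genes. The E-box CACGTG, which reads the same on both strands, stood in 6 of the 28 (21.4%) and in 8.09% of all. Capitals mark these letters below, and coordinates are those of GRCm38.p6. For Rbl1, Tfdp1 and Cdk4 the 250 bases before the start are given, and for E2f2, whose match begins 39 bases after the start, 30 bases around it.
E2f2, chr4:136172294-136172323, forward strand: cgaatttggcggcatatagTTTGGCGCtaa
Rbl1, chr2:157204535-157204784, reverse strand: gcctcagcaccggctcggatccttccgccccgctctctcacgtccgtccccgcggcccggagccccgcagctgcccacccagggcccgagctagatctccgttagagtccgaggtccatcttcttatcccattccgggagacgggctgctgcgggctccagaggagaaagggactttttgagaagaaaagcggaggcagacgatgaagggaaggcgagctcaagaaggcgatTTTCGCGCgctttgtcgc
Tfdp1, chr8:13338501-13338750, forward strand: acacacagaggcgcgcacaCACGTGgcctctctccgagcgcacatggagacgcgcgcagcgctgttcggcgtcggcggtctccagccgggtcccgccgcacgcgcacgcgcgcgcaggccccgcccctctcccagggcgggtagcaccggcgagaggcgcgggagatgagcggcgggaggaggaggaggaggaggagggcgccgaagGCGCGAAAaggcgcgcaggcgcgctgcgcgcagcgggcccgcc
Cdk4, chr10:127063285-127063534, forward strand: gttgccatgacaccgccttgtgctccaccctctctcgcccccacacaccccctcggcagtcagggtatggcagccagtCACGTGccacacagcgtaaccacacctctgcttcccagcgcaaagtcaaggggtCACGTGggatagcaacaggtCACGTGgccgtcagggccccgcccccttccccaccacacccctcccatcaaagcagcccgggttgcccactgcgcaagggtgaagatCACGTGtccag
The match in Rbl1 begins 18 bases before the start, and Tfdp1 holds an E2F match on the opposite strand, 43 bases before the start, and an E-box 231 bases before it. Cdk4 holds 4 E-boxes within these bases. Of the genes that rose and are not shown, E2f3 holds E2F letters and an E-box, at different starts, and Cdkn2c an E-box. The windows of Cdkn1a and Cdkn2d, which rose as well, hold neither the E2F letters nor the E-box. No window was at hand for Ccnd1, Ccnd2, Ccne2 and Ccna2, which also rose. The same letters also stood in genes that did not pass the test, E2F letters in Cdc25a, Cdk2 and E2f7 and an E-box in Cdk6 and Max, and E2F letters in Cdkn2a and Mycn, which were not tested. A match describes the letters and is not evidence of binding.

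Expression was compared with limma on log2(TPM + 1), a scale that understates the change of low genes, for the 12510 genes whose mean over the libraries reached 1 TPM. Adjusted p-values are those of limma with Benjamini-Hochberg correction over all of these genes, and a gene is said to have risen or fallen where it is under 0.05. With 3 libraries a group, the smallest p that an exact permutation test can give is 0.1, so the calls lean on the variance that limma pools over genes. Of the 37 genes, 33 reached the mean of 1 TPM and 4 (Mycn, Cdkn1c, Cdkn2a and Cdkn2b) did not. Among the 33, 12 rose and 5 fell in pLV-SEMA6A. Of all genes tested, 47.6% passed the same threshold, 19.5% as higher and 28.2% as lower, so 17 of 33 called is close to the background and is not itself a result about these genes. In 23 of the 33 the libraries of the groups did not overlap, against 58.5% of all genes. With a further minimum of 0.5 on the log2 scale, which the study applied to DEGs from limma but did not state for this RNA-seq comparison, 5 of the 33 passed against 15.9% of all genes. These were Ccnd1, Ccne2, E2f2 and Cdkn1a, which rose, and Rbl2, which fell. Of all calls, 40.9% were higher in pLV-SEMA6A, and this share was 57.7% after centring each library on its own median, because the library median was 0.09 lower in pLV-SEMA6A on the log2 scale.

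**Figure D1:**
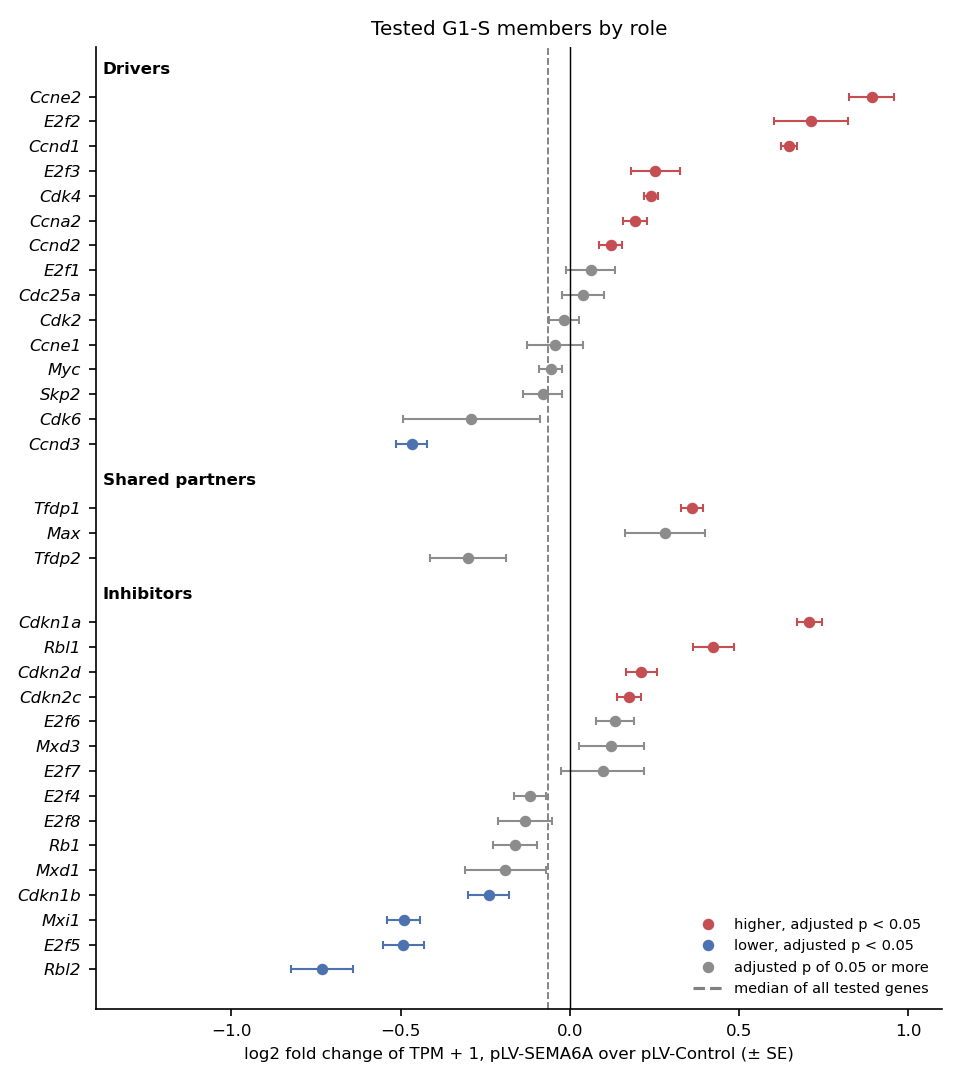
Log2 fold change of TPM + 1 (pLV-SEMA6A over pLV-Control) for the 33 tested genes, by role; points are limma estimates, bars 1 standard error, red points rose and blue points fell at an adjusted p under 0.05, and the dashed line is the median of all tested genes. Rises and falls stand in both roles, from 0.89 for Ccne2 to −0.73 for Rbl2.

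Among the drivers, 15 were tested, of which 7 rose (46.7%, against 19.5% of all genes) and 1 fell (6.67%, against 28.2%). Their median log2 fold change was 0.06, against −0.06 for all genes tested. The rises lay in the cyclins Ccnd1, Ccnd2, Ccne2 and Ccna2, in Cdk4 and in E2f2 and E2f3, and the fall in Ccnd3. Among the inhibitors, 15 were tested, of which 4 rose (26.7%) and 4 fell (26.7%), with a median of −0.12. The rises lay in Cdkn1a, Cdkn2c, Cdkn2d and Rbl1, and the falls in Cdkn1b, E2f5, Rbl2 and Mxi1. Of the 3 shared partners, Tfdp1 rose. The direction of drivers against inhibitors as lists was given no test, since the lists were named with results of these data known.

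Cyclin D1 (Ccnd1), the cyclin most often raised by growth signals, stood at 107, 106 and 108 TPM in pLV-Control, against 169, 168 and 168 TPM in pLV-SEMA6A. All 3 pLV-SEMA6A libraries were above all pLV-Control libraries, with no overlap. The mean rose 1.57-fold, from 107 ± 1.13 to 168 ± 0.81 TPM (SD, n = 3 each; log2 fold change 0.65, SE 0.02, adjusted p = 6.88e-06). Cyclin D3 (Ccnd3), which pairs with the same kinases, went the other way, from 57.6 ± 1.76 to 41.4 ± 1.90 TPM (log2 fold change −0.47, SE 0.05, adjusted p = 0.000361). Cyclin D2 (Ccnd2) rose from 57.1 ± 1.52 to 62.2 ± 1.18 TPM, a log2 fold change of 0.12 with an adjusted p of 0.0281, and this call was lost without pLV-Control replicate 1 or 2 or pLV-SEMA6A replicate 2 or 3 (adjusted p from 0.0628 to 0.0839). The summed TPM of the D-type cyclins was 222 ± 2.28 in pLV-Control and 272 ± 1.25 in pLV-SEMA6A. Within that sum the share of Ccnd1 was 48.3% ± 0.45 and 61.9% ± 0.20, and that of Ccnd3 was 26.0% ± 0.78 and 15.2% ± 0.63 (SD, n = 3). These sums, shares and the ratios that follow were chosen after the values had been seen, and carry no test.

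Their kinase Cdk4 was the most abundant of the 37 genes in TPM, at 287, 292 and 291 TPM in pLV-Control and 340, 340 and 347 TPM in pLV-SEMA6A. The groups did not overlap, though the distance was small beside the level. The rise was 1.18-fold (log2 fold change 0.24, SE 0.02, adjusted p = 0.000215). Cdk6, the alternative partner, ranged from 18.9 to 30.4 TPM in pLV-Control and from 17.0 to 24.8 TPM in pLV-SEMA6A. These ranges overlapped, and the log2 fold change of −0.29 had a standard error of 0.20 (adjusted p = 0.279). The promoter of Cdk4 is the one above with 4 E-boxes.

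Cyclin E2 (Ccne2), an activator of CDK2, stood at 7.88, 6.97 and 7.89 TPM in pLV-Control, against 14.6, 15.2 and 14.9 TPM in pLV-SEMA6A. Every pLV-SEMA6A library lay far above every pLV-Control library. The rise from 7.58 ± 0.53 to 14.9 ± 0.26 TPM was 1.97-fold (log2 fold change 0.89, SE 0.07, adjusted p = 0.000105). This was the highest of the 33 genes on the log2(TPM + 1) scale, while the TPM ratio of the low-level E2f2 was equally 1.97. Cyclin E1 (Ccne1), its paralog, was at 11.2, 13.0 and 13.1 TPM in pLV-Control and 11.2, 12.8 and 12.2 TPM in pLV-SEMA6A. Its groups overlapped (log2 fold change −0.04, SE 0.08, adjusted p = 0.691). The ratio of Ccne2 to Ccne1 was 0.614 ± 0.09 in pLV-Control and 1.24 ± 0.06 in pLV-SEMA6A, so the order of the paralogs in TPM differed between the groups. Cyclin A2 (Ccna2), which takes over CDK2 in S phase, rose from 80.9 ± 3.02 to 92.5 ± 1.43 TPM (log2 fold change 0.19, adjusted p = 0.00541). Cdk2 itself stood at 24.3 ± 0.80 and 24.0 ± 0.57 TPM (log2 fold change −0.02, SE 0.04, adjusted p = 0.777). Cdc25a, the phosphatase that activates CDK2, showed 0.04 on the log2 scale (SE 0.06, adjusted p = 0.638). Skp2, which directs p27 to degradation, had −0.08 (SE 0.06, adjusted p = 0.286).

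**Figure D2:**
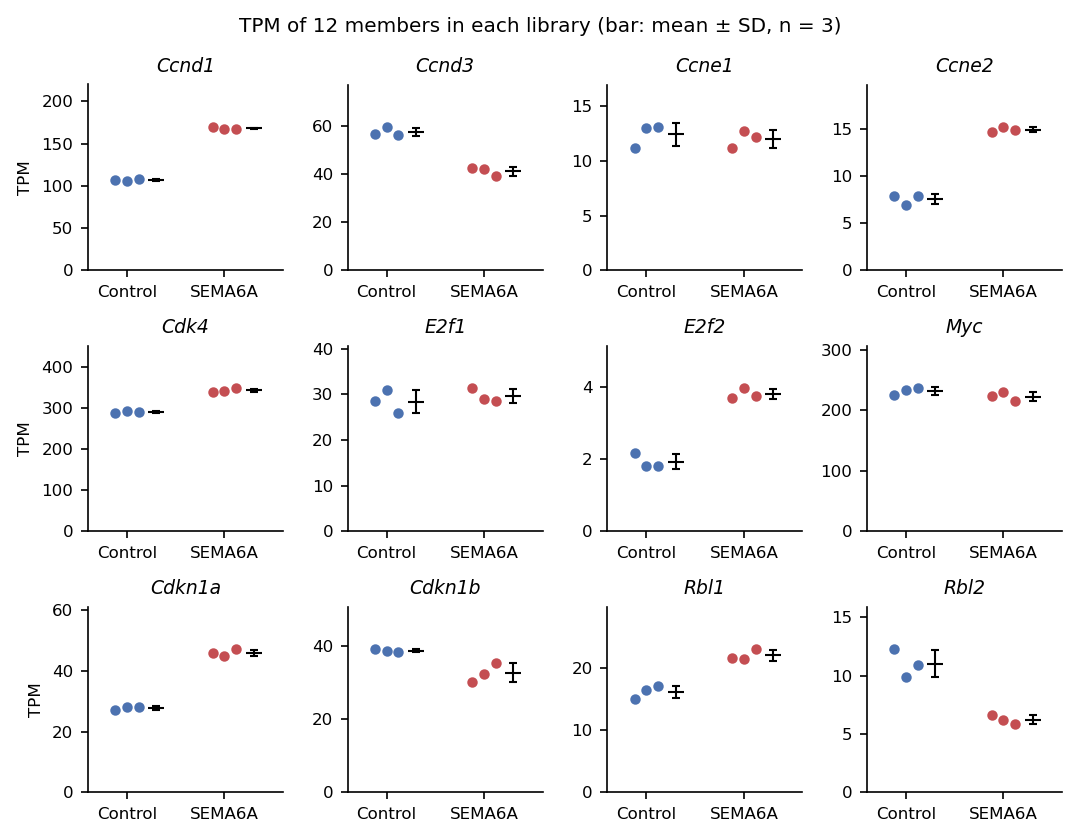
TPM of 12 genes in each library on linear axes from 0, with pLV-Control in blue and pLV-SEMA6A in red; points are libraries and the black bar is the mean ± SD (n = 3). The groups are separate for Ccnd1, Ccnd3, Ccne2, Cdk4, E2f2, Cdkn1a, Cdkn1b, Rbl1 and Rbl2, and overlap for Ccne1, E2f1 and Myc.

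Of the activating E2F factors, E2f2 was low, at 2.16, 1.81 and 1.81 TPM in pLV-Control and 3.69, 3.95 and 3.73 TPM in pLV-SEMA6A. No pLV-Control library reached the lowest pLV-SEMA6A library. The TPM ratio was 1.97, and on the log2(TPM + 1) scale the difference was 0.71 (SE 0.11, adjusted p = 0.00222). E2f1, the best known target and activator of this circuit, was at 28.5, 30.9 and 25.9 TPM in pLV-Control and 31.3, 29.0 and 28.7 TPM in pLV-SEMA6A. These values overlapped (log2 fold change 0.06, SE 0.07, adjusted p = 0.515). E2f3 rose from 11.2 ± 0.81 to 13.5 ± 0.72 TPM (log2 fold change 0.25, adjusted p = 0.0279), a call that was lost without pLV-Control replicate 1 or 3 or pLV-SEMA6A replicate 1 or 2 (adjusted p from 0.0544 to 0.0820). E2F proteins bind DNA with a DP partner. The DP gene Tfdp1 rose from 101 ± 3.76 to 129.8 ± 0.86 TPM (log2 fold change 0.36, SE 0.03, adjusted p = 0.000293), with the limit that 21.7% of its 31-base stretches also occur in other genes, mainly Gm7390. Tfdp2 ranged from 13.3 to 18.4 TPM in pLV-Control and from 12.1 to 12.3 TPM in pLV-SEMA6A. Its log2 fold change of −0.30 did not pass the test (SE 0.11, adjusted p = 0.0664), and it did without pLV-Control replicate 1 (adjusted p = 0.0295).

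The repressive E2F factors did not move as 1 group. E2f5, which acts with the pocket proteins in quiescent cells, fell from 21.6 ± 1.20 to 15.1 ± 0.64 TPM (log2 fold change −0.49, SE 0.06, adjusted p = 0.000887). E2f4, the most abundant E2F in these cells, was at 68.6 ± 2.11 and 63.2 ± 3.17 TPM (log2 fold change −0.12, SE 0.05, adjusted p = 0.0805). E2f6, which represses without pocket proteins, showed 0.13 on the log2 scale (adjusted p = 0.0987, and 0.0164 after centring). The atypical factors E2f7 and E2f8, which bind DNA without a DP partner, had values of 0.10 (adjusted p = 0.547) and −0.13 (adjusted p = 0.217).

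Of the pocket proteins, which hold E2F factors in check, 1 rose and 1 fell. p107 (Rbl1), itself an E2F target, rose from 16.2 ± 0.99 to 22.0 ± 0.84 TPM (log2 fold change 0.42, SE 0.06, adjusted p = 0.00164). p130 (Rbl2), the form that prevails in resting cells, was at 12.3, 9.91 and 10.9 TPM in pLV-Control, against 6.65, 6.19 and 5.84 TPM in pLV-SEMA6A. All pLV-SEMA6A libraries were below all pLV-Control libraries. This fall from 11.0 ± 1.17 to 6.23 ± 0.41 TPM, 1.77-fold, was the lowest value among the 33 genes (log2 fold change −0.73, SE 0.09, adjusted p = 0.00104). Rb1 was at 7.83 ± 0.05 and 6.89 ± 0.33 TPM (log2 fold change −0.16, SE 0.07, adjusted p = 0.0834, and 0.0289 without the trend option). The ratio of Rbl1 to Rbl2 was 1.48 ± 0.22 in pLV-Control and 3.55 ± 0.35 in pLV-SEMA6A. The summed TPM of the pocket proteins, at 35.0 ± 0.86 and 35.1 ± 0.63, overlapped between the groups.

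Among the Cip/Kip inhibitors, p21 (Cdkn1a), a classical target of p53, was at 27.1, 28.2 and 28.1 TPM in pLV-Control and 45.9, 45.0 and 47.1 TPM in pLV-SEMA6A. The groups were widely separate. The mean rose 1.66-fold, from 27.8 ± 0.56 to 46.0 ± 1.01 TPM (log2 fold change 0.71, SE 0.04, adjusted p = 3.11e-05). This inhibitor rose in the same libraries as the cyclins Ccnd1 and Ccne2. p27 (Cdkn1b), which marks resting cells, was at 39.0, 38.6 and 38.2 TPM in pLV-Control and 30.1, 32.4 and 35.3 TPM in pLV-SEMA6A. It was lower in every pLV-SEMA6A library, though these were spread more widely than the controls. Its fall (log2 fold change −0.24, SE 0.06, adjusted p = 0.0169) lost its call after centring (−0.15, adjusted p = 0.0980) and without pLV-Control replicate 1 (adjusted p = 0.0513). The ratio of Cdkn1a to Cdkn1b was 0.720 ± 0.02 in pLV-Control and 1.42 ± 0.10 in pLV-SEMA6A. p57 (Cdkn1c) was at most 0.52 TPM in any library and was not tested.

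**Figure D3:**
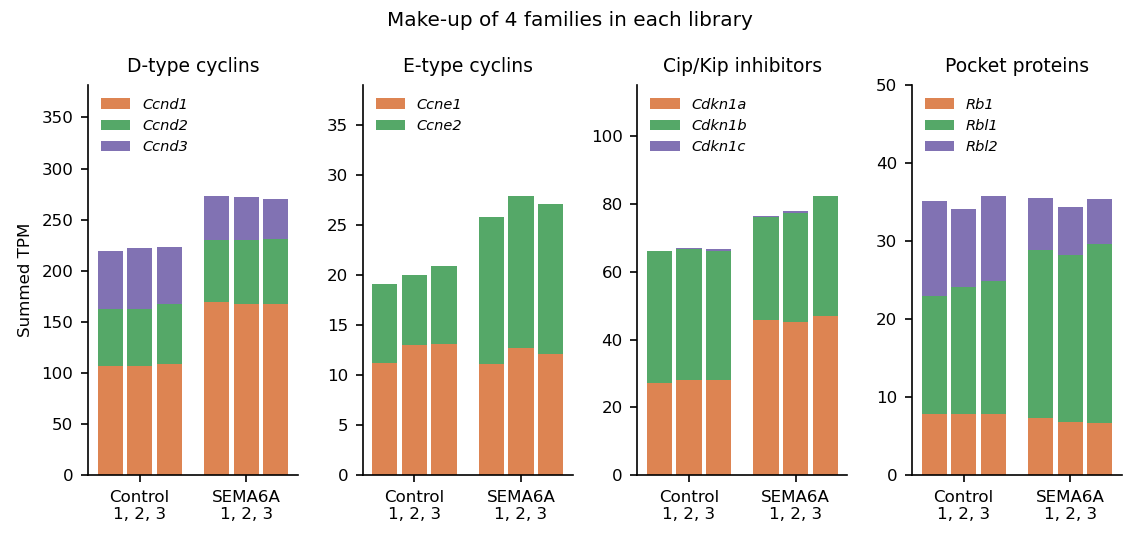
Stacked TPM of the D-type cyclins, E-type cyclins, Cip/Kip inhibitors and pocket proteins in each library, pLV-Control replicates 1 to 3 on the left and pLV-SEMA6A replicates 1 to 3 on the right of each panel, on linear axes from 0. Ccnd1, Ccne2, Cdkn1a and Rbl1 take a larger share of their family in every pLV-SEMA6A library, and the pocket protein sum stays near 35.0 TPM.

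The INK4 inhibitors split by level. Cdkn2c (p18) rose from 40.6 ± 0.82 to 46.0 ± 0.95 TPM (log2 fold change 0.17, adjusted p = 0.00755), and Cdkn2d (p19) from 18.2 ± 0.68 to 21.2 ± 0.24 TPM (log2 fold change 0.21, adjusted p = 0.00993). Cdkn2a, which encodes p16 and ARF and is often lost in cultured tumour lines, had 0.09, 0 and 0.20 TPM in pLV-Control and was listed at 0 in all pLV-SEMA6A libraries. Its neighbour Cdkn2b (p15) was listed at 0 in all 6. No fold is given against groups at 0, and a listed 0 may be a failed estimate. Mtap, which lies beside Cdkn2a, was well expressed, at 245 ± 4.29 and 299 ± 4.16 TPM (log2 fold change 0.29, adjusted p = 0.000175). Dmrta1, on the other side of Cdkn2b, was at 0.81 ± 0.09 and 1.83 ± 0.18 TPM (log2 fold change 0.65, adjusted p = 0.012). Its mean over the libraries reached the filter of 1 TPM only through the pLV-SEMA6A libraries.

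Myc, the growth factor-driven oncogene, was highly expressed, at 225, 234 and 236 TPM in pLV-Control and 224, 229.6 and 215 TPM in pLV-SEMA6A. The groups overlapped. The log2 fold change of −0.06 had a standard error of 0.03 (adjusted p = 0.209), and after centring it was 0.04 (adjusted p = 0.387). Mycn was listed at 0 in all libraries. Max, the obligate partner of Myc, ranged from 47.3 to 66.6 TPM in pLV-Control and from 67.0 to 71.9 TPM in pLV-SEMA6A (log2 fold change 0.28, SE 0.12, adjusted p = 0.0916). It passed the test after centring (adjusted p = 0.0400) and without pLV-Control replicate 2 (adjusted p = 0.0270). Of the competitors for Max, Mxi1 fell from 30.1 ± 1.00 to 21.1 ± 0.77 TPM (log2 fold change −0.49, SE 0.05, adjusted p = 0.000340). Mxd1, at 2.30 and 1.89 TPM, and Mxd3, at 5.71 and 6.33 TPM, did not pass (log2 fold changes −0.19 and 0.12, adjusted p = 0.234 and 0.332).

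Of 9 other genes of the Myc network that were tested, 2 rose (22.2%, against 19.5% of all genes) and 4 fell (44.4%, against 28.2%), with a median log2 fold change of −0.23 against −0.06 for all genes. Pvt1, the long non-coding RNA next to Myc, fell from 84.7 ± 6.21 to 33.9 ± 3.10 TPM (log2 fold change −1.30, adjusted p = 5.76e-05). The ratio of Pvt1 to Myc was 0.366 ± 0.03 in pLV-Control and 0.152 ± 0.01 in pLV-SEMA6A. Mycl, a Myc paralog, fell from 4.15 ± 0.26 to 1.87 ± 0.35 TPM (log2 fold change −0.85, adjusted p = 0.00223). Mlx, a Max-like partner, rose with a log2 fold change of 0.35 (adjusted p = 0.00141), and Cip2a, which stabilises the Myc protein, with 0.25 (adjusted p = 0.00427). The other falls were in Mnt (−0.44), a further competitor for Max, and Zbtb17 (−0.25), a zinc finger protein that binds Myc.

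**Figure D4:**
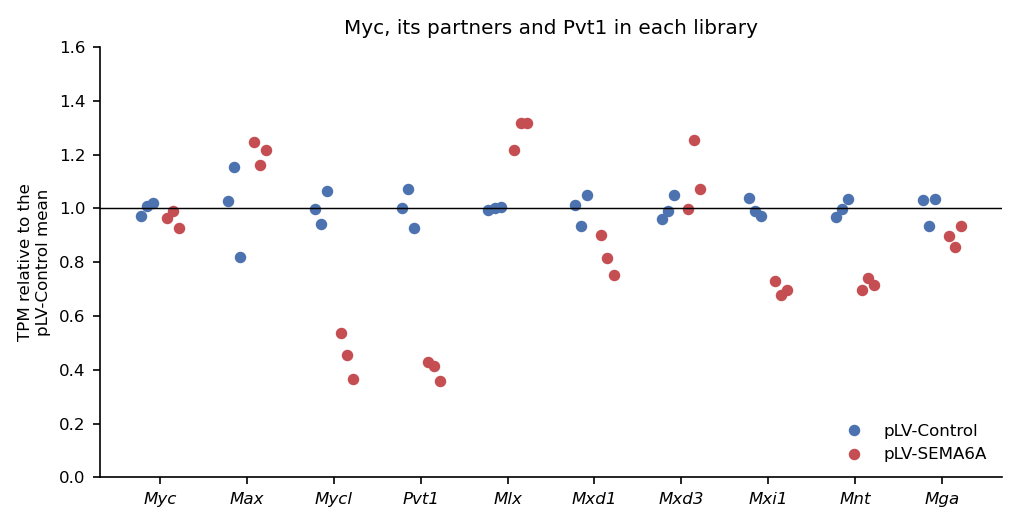
TPM of Myc, Max, Mycl, Pvt1, Mlx, Mxd1, Mxd3, Mxi1, Mnt and Mga in each library, divided by the pLV-Control mean of that gene, on a linear axis from 0; blue points are pLV-Control and red points pLV-SEMA6A libraries. Myc overlaps around 1, while Pvt1 and Mycl lie lowest in pLV-SEMA6A.

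Other regulators of G1-S, from a list of 22 symbols, were set beside these genes. Of 18 tested, 6 rose (33.3%, against 19.5% of all genes) and 2 fell (11.1%, against 28.2%), with a median log2 fold change of 0.07. The 8 called of 18 are close to the 47.6% of all genes and are not a result about this list. Rbx1 and Cul1, subunits of the SCF ubiquitin ligase that works with Skp2, rose with log2 fold changes of 0.61 (adjusted p = 0.000592) and 0.41 (adjusted p = 0.000644). In Rbx1, 5.21% of the 31-base stretches also occur in other genes. Ccnh and Mnat1, subunits of the kinase that activates CDKs, fell with −0.64 (adjusted p = 0.000296) and −0.18 (adjusted p = 0.0141), and Mnat1 lost its call after centring. Cdk7, the kinase subunit itself, did not pass (log2 fold change 0.10, adjusted p = 0.256). The MuvB core represses cell cycle genes with p107 or p130 in the DREAM complex, and activates them with B-Myb (Mybl2) and FoxM1. Of 7 tested genes of these complexes, 1 rose and 3 fell, with a median of −0.08, and this share of called genes is near the 47.6% of all genes. Mybl2 rose (log2 fold change 0.35, adjusted p = 0.00686), although 21.0% of its 31-base stretches occur in other genes. Lin52 and Foxm1 fell with −0.44 (adjusted p = 0.0197) and −0.17 (adjusted p = 0.0267), and the third was the histone chaperone Rbbp4 (−0.08, adjusted p = 0.0319). These 3 calls were weak, since 0 to 2 of them were left when 1 library was taken out, and 1 after centring.

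The targets of E2F and Myc were read as lists of textbook targets. These lists too were named with results of these data known, so their shares were given no test. Of 26 E2F targets, 23 rose (88.5%, against 19.5% of all genes) and 1 fell, with a median log2 fold change of 0.42 against −0.06 for all genes. Between 19 and 21 of them rose when 1 library was left out. Tyms, which makes thymidylate, and Mcm2, a subunit of the replicative helicase, had the highest values, 0.81 (adjusted p = 0.000107) and 0.78 (adjusted p = 1.41e-05). In Tyms, 9.82% of the 31-base stretches also occur in other genes. Tk1, thymidine kinase, fell from 61.8 ± 1.52 to 48.1 ± 2.78 TPM (log2 fold change −0.36, adjusted p = 0.00145), and the smallest rise was in Rrm1 (0.17, adjusted p = 0.00553). An E2F match stood in the promoter window of 12 of the 23 targets that RefSeq held (52.2%). Of 24 Myc targets, mainly of ribosome synthesis, 17 rose (70.8%) and 3 fell, with a median of 0.34. Cad, the gene of nucleotide synthesis among them, did not pass (log2 fold change 0.04, adjusted p = 0.588). Rrp12 and Bop1, factors of ribosome assembly, had values of 0.86 (adjusted p = 4.92e-05) and 0.69 (adjusted p = 2.75e-05). Pes1 and Npm1 fell with −0.19 each (adjusted p = 0.0106 and 0.000249), and 32.4% and 29.2% of their 31-base stretches occur in other genes. Such sharing was not particular to the falls. More than 5% of the stretches were shared in 8 of the 17 Myc targets that rose, up to 65.5% in Ddx18, and in 8 of the 23 E2F targets that rose, up to 26.8% in Mcm7, so the values of these genes are uncertain. The third fall was in Tcof1 (−0.15, adjusted p = 0.0229), and Pes1 and Tcof1 lost their calls after centring. Tcof1 lost it also without pLV-Control replicate 1 or 3 or pLV-SEMA6A replicate 1 or 3 (adjusted p from 0.0585 to 0.0706). An E-box stood in the promoter window of 4 of 18 (22.2%). Neither E2f1 nor Myc itself passed the test in the same libraries. The other activating factors E2f2 and E2f3 rose there, with the limits given above for the call of E2f3.

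**Figure D5:**
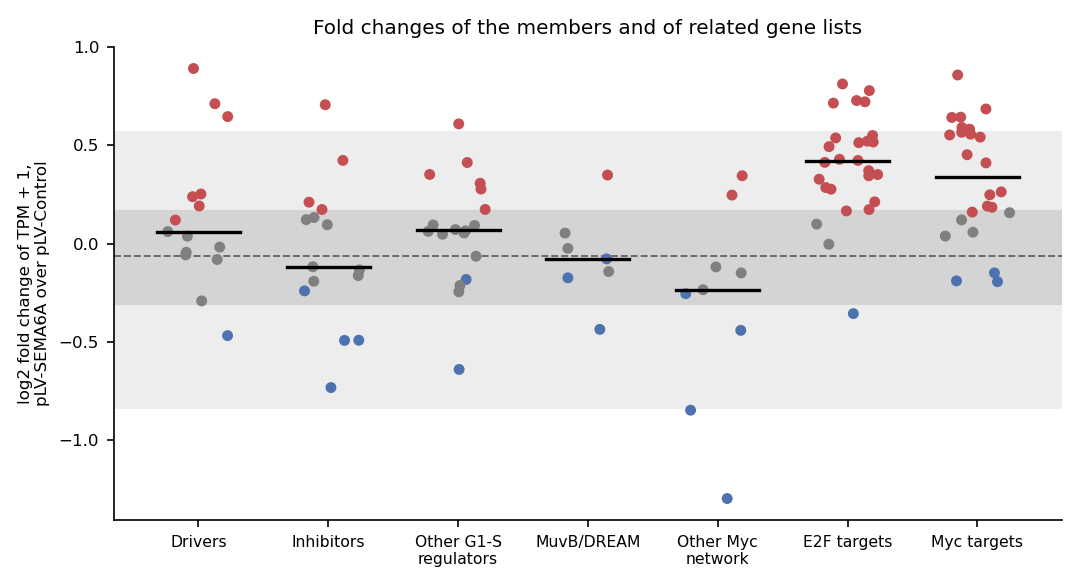
Log2 fold change of TPM + 1 (pLV-SEMA6A over pLV-Control) of each tested gene by list; red points rose, blue points fell, grey points did not pass the test, and black lines are list medians. The dashed line, the dark band and the light band are the median, the middle range from the 25th to the 75th percentile and the range from the 5th to the 95th percentile of all tested genes. The E2F targets (median 0.42) and Myc targets (0.34) lie mostly above the dashed line, and drivers and inhibitors spread to both sides of it.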

How the data were processed

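According to the study, a company extracted the RNA from the cells, built the libraries and sequenced them. The authors deposited TPM per gene for 3 pLV-Control and 3 pLV-SEMA6A libraries. The submitters' processing notes name HISAT, Bowtie2, RSEM and mm39, without role or version, and the study names DESeq2, which needs counts and was not run. The 2 columns of group means were not used. Groups and replicate numbers come from the labels.

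The 37 genes and the gene lists were chosen with earlier results of these data known. Genes whose mean TPM reached 1 (12510) entered a limma 3.58.1 fit of log2(TPM + 1), run in R 4.3.3 on the group alone and with a variance trend, with Benjamini-Hochberg correction over all of them. The steps were tested on simulated data. Tables were made with Python 3.11.15 and pandas 2.3.3. Library values are given for members past both thresholds (adjusted p of 0.05, absolute log2 fold change of 0.5) and for 8 genes fixed by name (Ccnd1, Ccne1, Cdk4, E2f1, Myc, Cdkn1a, Cdkn1b, Cdkn2a). Of each other list the highest and lowest 2 called genes are named, and Pvt1 and Mtap. Dmrta1, Mnt, Zbtb17, Tcof1, Cad, Cdk7, Ddx18, Mcm7, Col1a1, Pdgfra and Pdgfrb were named after their values were seen. Lin54 is not analysed here, and Skp1a and Miz1 are other symbols of Skp1 and Zbtb17. The 31-base stretches shared with other genes were counted over GENCODE M21 transcripts (GRCm38), matched by identifier. Promoters are from RefSeq (GRCm38.p6), matched by symbol.

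The alternatives were no filter on low values, a pseudocount of 0.1, each library centred on its median, TPM rescaled without the 100 highest genes, no trend, the replicate block, a minimum fold change and leaving out each library in turn.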

Additional observations from a re-analysis of the deposited data

How the results depend on the processing

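Counts of calls depended most on the minimum fold change. With an absolute log2 fold change over 0.5 required as well, the 37 genes had 4 higher and 1 lower, the drivers 3 and 0, the inhibitors 1 and 1, the other G1-S regulators 1 and 1, the MuvB and DREAM genes 0 and 0, the other Myc network 0 and 2, and the E2F and Myc targets 10 and 0 each. Those counts are smaller by construction. Of all 12510 genes tested, 640 were higher and 1347 lower with this minimum. After centring each library on its median, 1 of the other G1-S regulators, 1 MuvB and DREAM gene and 1 Myc target were lower, in place of 2, 3 and 3. All genes tested shifted the same way with centring. The share called lower went from 28.2% to 19.8%, and the share called higher from 19.5% to 26.9%. Leaving out each library in turn gave 15 to 17 calls among the 37 genes (higher 10 to 12, lower 5), 5 to 6 higher drivers, 3 to 4 lower inhibitors, and 0 to 2 lower MuvB and DREAM genes (0 without pLV-Control replicate 1 or 3, 2 without pLV-SEMA6A replicate 2, 1 otherwise). Ccnd2, E2f3 and Cdkn1b were the called genes among the 37 that lost their call in at least 1 of these fits. The sign of some genes that did not pass the test, and of Rbbp4, turned. After centring the log2 fold change was 0.0498 for Ccne1, 0.0762 for Cdk2, 0.0364 for Myc, 0.0132 for Skp2 and 0.0163 for Rbbp4. Without 1 library in turn it ran from −0.1116 to 0.0053 for Ccne1 (positive without pLV-SEMA6A replicate 1), from −0.0081 to 0.0751 for Cdc25a (negative without pLV-SEMA6A replicate 3), from −0.0421 to 0.0026 for Cdk2 (positive without pLV-Control replicate 1) and from −0.0012 to 0.1217 for E2f1 (negative without pLV-Control replicate 3). The cause was not tested. Deviations from the group means were not shared by same-numbered libraries (correlations from −0.08 to −0.02, and −0.01 to 0.08 for other numbers). These ranges are tied to each other, because each deviation is taken from the mean of its own group. The labels do not say whether same-numbered libraries were prepared together, and the correlations cannot decide it. With the replicate block, 1 MuvB and DREAM gene was lower, and Ccnd2, Foxm1, Rbbp4 and Tcof1 had adjusted p-values from limma of 0.0514, 0.0694, 0.0848 and 0.0651. The marker Pdgfra also lost its call with the block (adjusted p from limma of 0.0681). No other call among the named genes changed with it. Pseudocount, the low-value filter, the rescaling and the trend option left every count of calls within 1.5 times the count reported. Single calls did change. Without the trend option Mxd1 (adjusted p from limma of 0.0473) and Rb1 (0.0289) passed, and Ccnd2 (0.0521) and Rbbp4 (0.121) did not. Without the low-value filter E2f3 (0.0612) and Lin52 (0.0501) lost their calls. Depth, which TPM does not hold, limits what can be said of Mycn, Cdkn1c, Cdkn2a and Cdkn2b.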
